A study of Arabidopsis thaliana with 21 samples.

Results

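ATL genes encode small RING finger proteins of plants, and 4 of the 2945 genes with values in the deposited tables carried a gene symbol made of ATL and a number: ATL4 (AT3G60220), ATL5 (AT3G62690), ATL8 (AT1G76410) and ATL15 (AT1G22500). The tables hold only genes that the authors selected for a change in at least 1 of 4 comparisons, so these genes were in effect selected on their measured levels and fold changes there. ATL8 was listed for nitrate in Ler roots, ATL5 for NLP7 in protoplasts, ATL4 for NLP7 with and without KIN10, and ATL15 in all 4 tables. A further 11 genes bore an ATL number in the UniProt name that the tables give beside the symbol (ATL7, ATL20, ATL31, ATL32, ATL35, ATL41, ATL54, ATL64, ATL72, ATL77 and ATL78). All 15 had a RING finger entry in the tables. The wider list of 15 was drawn up after the files were opened and serves as the family in which the 4 genes are set.

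The RNA-seq data came from 21 libraries in 7 groups of 3 biological replicates. Roots of Arabidopsis seedlings formed 4 groups: wild-type Landsberg erecta (Ler) and plants of p35S:KIN10-HA, called KIN10ox here, in which the 35S promoter drives KIN10 in most tissues. Both genotypes had grown for 7 days with 5 mM nitrate and for 2 days without nitrogen, and were then treated for 1 h with KNO3 or with KCl, each at 5 mM, so the KCl roots were nitrogen-starved controls. Mesophyll protoplasts of 4-week-old Col-0 plants formed the other 3 groups, transformed with GFP, with NLP7-GFP, or with NLP7-GFP and KIN10-Myc together; the cells keep their own NLP7 and KIN10 genes. The labels do not say how many transgenic lines or how many plants went into a library. The question put in the design was whether KIN10 acts on nitrate signalling and on NLP7.

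A RING finger ubiquitin ligase brings about the transfer of ubiquitin to a target protein, which often sends the target to the proteasome. Proteins of the ATL family join a RING finger of the H2 type to a hydrophobic stretch that can anchor them in a membrane. Several respond quickly to elicitors, sugar or nitrogen: ATL31, also called CNI1, acts in the response to the ratio of carbon to nitrogen through 14-3-3 proteins, and ATL8 has been described as a gene induced by sugar starvation. KIN10 is a catalytic subunit of the energy-sensing kinase SnRK1, and NLP7 is a transcription factor that starts the primary nitrate response by binding nitrate-responsive elements in promoters.

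ATL4 and ATL5 lie on the minus strand of chromosome 3 (TAIR10; chr3:22254563-22256177 and chr3:23185348-23186720), and ATL8 and ATL15 on the plus strand of chromosome 1 (chr1:28668664-28669652 and chr1:7949476-7950900). Each is annotated with 1 transcript, of 1615, 1373, 989 and 1425 bases. The 250 bases before the annotated start are shown for ATL5 and ATL8, the genes with the largest fall with KIN10 in protoplasts and the largest genotype difference in roots among the ATL genes, and for ATL15 and ATL54, which were listed in all 4 tables and hold the spacing of a nitrate-responsive element. ATL32 also meets both of these conditions, and its window is not shown. ATL54 (AT1G72220) lies on the minus strand of chromosome 1. The bases are read from the RefSeq TAIR10.1 genome, 5′ to 3′ on the strand of the gene, and capitals mark the letters of the motifs described after them. The windows are chr3:23186721-23186970 (minus), chr1:28668414-28668663 (plus), chr1:7949226-7949475 (plus) and chr1:27185884-27186133 (minus).
ATL5: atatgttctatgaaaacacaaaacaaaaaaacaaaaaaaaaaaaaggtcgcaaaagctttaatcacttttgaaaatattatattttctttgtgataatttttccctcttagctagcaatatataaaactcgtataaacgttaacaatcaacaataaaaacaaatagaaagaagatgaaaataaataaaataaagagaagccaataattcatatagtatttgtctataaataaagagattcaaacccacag
ATL8: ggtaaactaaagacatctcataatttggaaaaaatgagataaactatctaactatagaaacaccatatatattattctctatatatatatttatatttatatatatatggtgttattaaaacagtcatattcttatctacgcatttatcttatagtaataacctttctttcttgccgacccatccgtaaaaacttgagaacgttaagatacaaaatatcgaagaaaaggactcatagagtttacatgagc
ATL15: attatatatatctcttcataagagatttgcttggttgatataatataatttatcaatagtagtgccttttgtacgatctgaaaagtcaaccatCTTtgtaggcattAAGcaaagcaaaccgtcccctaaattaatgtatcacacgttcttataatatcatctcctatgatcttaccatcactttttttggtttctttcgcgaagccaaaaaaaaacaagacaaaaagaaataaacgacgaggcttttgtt
ATL54: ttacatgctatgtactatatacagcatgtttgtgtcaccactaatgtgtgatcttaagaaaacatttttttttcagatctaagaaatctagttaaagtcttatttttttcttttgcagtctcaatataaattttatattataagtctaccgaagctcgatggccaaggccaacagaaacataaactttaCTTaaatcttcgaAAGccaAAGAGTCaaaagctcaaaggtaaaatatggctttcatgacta

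The spacing of a nitrate-responsive element, CTT and AAG separated by 10 bases of any kind, searched on both strands, was found in 4 of the 15 ATL windows of 250 bases: in ATL15 beginning 157 bases before the start, in ATL54 at 61, in ATL32 at 194 and in ATL72 at 179. It occurs in 8.02% of the 27437 promoter windows of that length in the genome. Its flanking letters GACCCTT were in none of the 15 windows and in 1.13% of all, and AAGAGTC was in that of ATL54 alone, 42 bases before the start and not overlapping the spacing, and in 3.14% of all. ATL4, ATL5 and ATL8 held none of the 3. The G-box CACGTG was in the window of ATL31 only (6.49% of all windows), and TATCCA, a sugar-starvation element first described in rice amylase genes, was in those of ATL7, ATL20, ATL32 and ATL41 (13.6% of all). In 1000 bases the spacing was present in 30.5% of 27434 promoters and in 6 of the 15 ATL genes. A match describes the letters only. The 250-base windows of ATL20, ATL41 and ATL78 overlap an annotated neighbouring gene. For ATL41 the start used was 17640546, where the authors' annotation has 17640798. Sequence of the Ler and KIN10ox plants was not read.

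In roots, ATL8 was higher in KIN10ox than in Ler with and without nitrate, whereas the libraries of the genotypes overlapped for ATL15. Levels are given in FPKM (fragments scaled by transcript length and by the mapped fragments of the library). ATL8 was at 1.61, 2.03 and 1.86 FPKM in Ler with KCl and at 4.36, 3.94 and 3.31 in Ler with KNO3. In KIN10ox it was at 6.39, 7.46 and 11.5 with KCl and at 10.5, 13.8 and 15.1 with KNO3. The order of the group means was therefore Ler with KCl, Ler with KNO3, KIN10ox with KCl and KIN10ox with KNO3, and neighbouring groups did not overlap except for the last pair. Every KIN10ox library without nitrate held more ATL8 than any nitrate-treated Ler library. Libraries of the genotypes did not overlap in this direction for 19.2% of all genes with KCl and for 8.02% with KNO3.

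Group means of ATL8 were 1.83 ± 0.211, 3.87 ± 0.528, 8.45 ± 2.7 and 13.1 ± 2.4 FPKM (SD, n = 3 each), in that order. The ratio of means with nitrate to without was 2.11 ± 0.218 (SE) in Ler, and the authors' deposited table gives a log2 fold change of 1.18. The ratio was 1.55 ± 0.33 (SE) in KIN10ox, where the gene was not listed. The design text names a 2-fold difference and a probability of 0.8 for the selection, while the deposited p-values are from DESeq2. By the ratio of means, ATL8 was just above 2-fold in Ler and below it in KIN10ox. Which criterion left it out in KIN10ox is not stated. A direct test did not separate these responses: the response in KIN10ox minus that in Ler was -0.45 ± 0.35 on the log2 scale (95% interval -1.20 to 0.31, adjusted p = 0.489, edgeR quasi-likelihood test), where the median over all genes was -0.26. It was -0.13 under TMM, -0.12 under DESeq2's size factors and under DESeq2, -0.16 without library 3 of KIN10ox with KCl and -0.61 without library 1 of that group, and was not called in any of 18 alternatives. The listing used the same Ler libraries, so the choice of the gene is not independent of this difference.

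**Figure D1:**
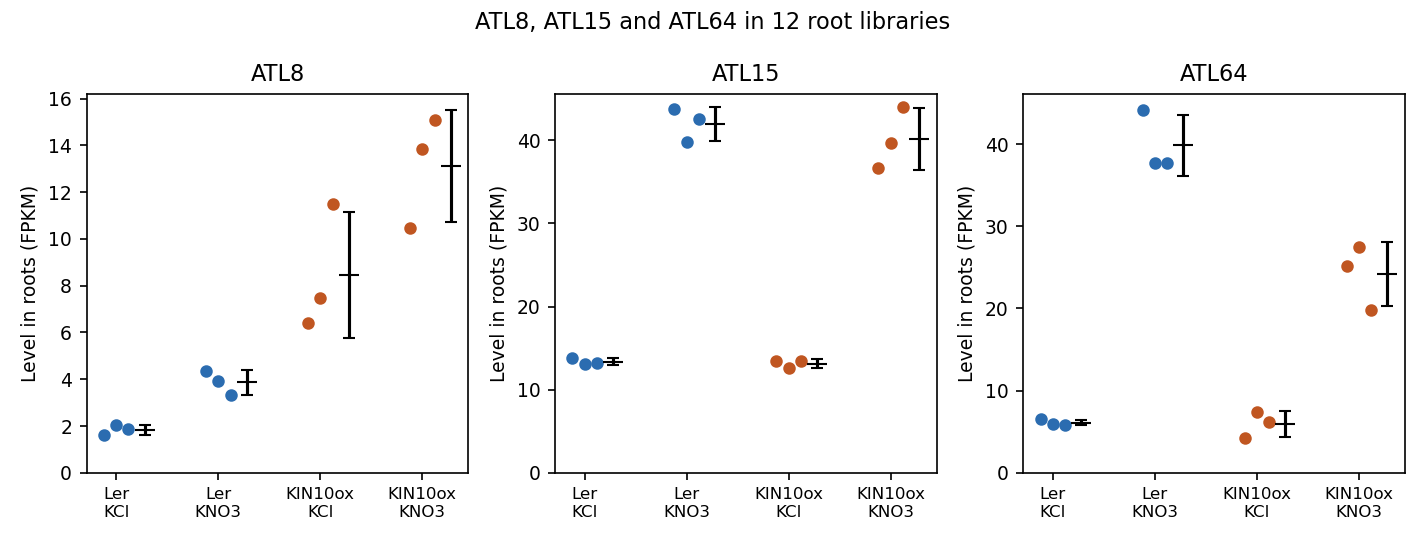
Levels of ATL8, ATL15 and ATL64 in FPKM (vertical axis, from 0) in the 12 root libraries, 1 point per library, with the group mean and SD beside each trio. ATL8 is higher in all 6 KIN10ox libraries (6.39 to 15.1) than in all 6 Ler libraries (1.61 to 4.36), the genotypes overlap for ATL15 under each treatment, and ATL64 reaches 37.7 to 44.2 in Ler with KNO3 but 19.8 to 27.5 in KIN10ox.

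KIN10ox roots had more ATL8 transcript than Ler roots under both treatments. With KCl the difference was 2.20 ± 0.26 (log2 ± SE, adjusted p = 3.05e-04), and with KNO3 it was 1.75 ± 0.24 (95% interval 1.22 to 2.28, adjusted p = 0.00125); p-values are from edgeR's quasi-likelihood test adjusted by Benjamini-Hochberg over the 972 root genes tested. The mean level was 4.61 ± 0.902 times that of Ler with KCl and 3.39 ± 0.446 times with KNO3 (SE). Of the 972 genes, 18 had a larger difference with KCl and 8 with KNO3. The median over all genes tested was 0.09 with KCl and -0.19 with KNO3, so relative to that median ATL8 was higher by 2.11 and 1.94. Over 19 alternative settings a treatment, ATL8 was called in every one, at 1.91 to 2.37 with KCl and 1.64 to 1.99 with KNO3. The gene was listed for its rise with nitrate in these same Ler libraries. The sizes, p-values and ranks are therefore not independent of how it was chosen.

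Leaf and seed transcripts differed between the root libraries. Of 10 leaf markers, all with values, the summed level was 105.1 to 476.5 FPKM in KIN10ox with KCl and 91.8 to 208.8 in Ler with KCl, and 4 of 5 seed and oil-breakdown markers summed to 3.64 to 86.4 and to 3.66 to 5.5 FPKM. In these 2 groups no marker was at 0 in all libraries. The leaf sums overlapped, and none of the 9 leaf markers tested was called with KCl. ICL, of the glyoxylate cycle, was called higher in KIN10ox (3.38 ± 0.72, adjusted p = 0.0104, edgeR). It was 1 of 3 seed markers tested, beside 7.72% of all genes called higher. ICL was called in 17 of 19 alternatives, at -0.17 to 3.92. Library 3 of KIN10ox with KCl held the highest sums and the highest ATL8, while library 2, with sums of 105.1 and 3.64 inside or near the Ler range, held 7.46 FPKM of ATL8. Without libraries 1 and 3 the KCl difference was 2.02 on the log2 scale, a setting added after the data were seen. The 1 remaining KIN10ox library with KCl is assumed there to vary like the others, so no p-value is given. With KNO3 the leaf sum was lower in KIN10ox (43.8 to 56.7) than in Ler (91.6 to 99.7), where LHB1B1 and RBCS2B were at 0. LHCA1, of a photosystem antenna, was the leaf marker called there (-1.16 ± 0.34, adjusted p = 0.045, edgeR). It was 1 of 9 leaf markers tested, beside 8.95% of all genes called lower, and was called in 5 of 19 alternatives. LHB1B1 and RBCS2B had the opposite sign and were not called (2.66 ± 6.41 and 2.66 ± 4.34). ATL8 was higher in KIN10ox with KNO3 as well. The part of leaf and seed transcripts in the ATL8 difference was not tested under either treatment. In bulk samples, fewer cells of a type and less RNA per cell cannot be told apart. None of the 10 root markers was among the listed root genes, so they could not be used to check the tissue. The KIN10 transcript had no value in roots either, so its level in KIN10ox roots could not be checked here.

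ATL15 behaved otherwise. It was at 13.9, 13.1 and 13.2 FPKM in Ler with KCl and at 43.8, 39.8 and 42.5 with KNO3. In KIN10ox it was at 13.5, 12.6 and 13.4 with KCl and at 36.6, 39.7 and 44.1 with KNO3. The genotypes overlapped under each treatment, and the treatments did not overlap in either genotype. The ratio of means with nitrate to without was 3.14 ± 0.106 in Ler and 3.05 ± 0.177 in KIN10ox (SE), against log2 fold changes of 1.75 and 1.81 in the authors' deposited tables. The difference of the responses was -0.04 ± 0.15 on the log2 scale (95% interval -0.36 to 0.28, adjusted p = 0.888), and the genotype differences were -0.02 ± 0.11 with KCl and -0.07 ± 0.10 with KNO3 (adjusted p = 0.906 and 0.681, edgeR). Scaling by TMM turned the sign of the KNO3 and of the response difference (0.15 and 0.28), with adjusted p of 0.374 and 0.361.

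Of the 11 ATL genes with root values, 10 were listed for nitrate in Ler and 10 in KIN10ox, against 68.3% and 76.4% of the 1128 root genes with values; the listing itself used these contrasts, so nothing is read from the counts. In Ler 8 of the 10 listed ATL genes (80%) were higher and 2 lower with nitrate, where 69.7% of all 770 listed genes were higher. In KIN10ox 7 of the 10 (70%) were higher and 3 lower, where 51% of all 862 listed genes were higher. As shares of the 1128 root genes with values, listed or not, 47.6% were listed as higher and 20.7% as lower in Ler, and 39% and 37.4% in KIN10ox. ATL31 was one of the lower genes in both. Its mean was 8.31 ± 1.34 FPKM with KCl and 2.83 ± 0.105 with KNO3 in Ler, and 9.48 ± 0.947 and 2.91 ± 0.331 in KIN10ox (SD, n = 3), the opposite direction to ATL8 and ATL15. ATL41 was the other gene listed as lower in both genotypes, with ratios of 0.465 ± 0.0193 and 0.426 ± 0.0926 (SE), and ATL35, at 0.15 to 1.84 FPKM over the 12 libraries, was listed as lower in KIN10ox and not in Ler.

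ATL64 had the largest ratios with nitrate of the family, 6.52 ± 0.412 in Ler and 4.06 ± 0.743 in KIN10ox (SE). The remaining genes listed as higher, ATL7, ATL32, ATL54, ATL77 and ATL78, had ratios from 2.21 to 3.72 in Ler and from 2.08 to 3.25 in KIN10ox. By level, ATL15 and ATL32 led the family in Ler with KNO3, at means of 42.0 and 41.1 FPKM, followed by ATL64 at 39.8 and ATL78 at 33.4. ATL8, at 3.87, was among the lower ones there.

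**Figure D2:**
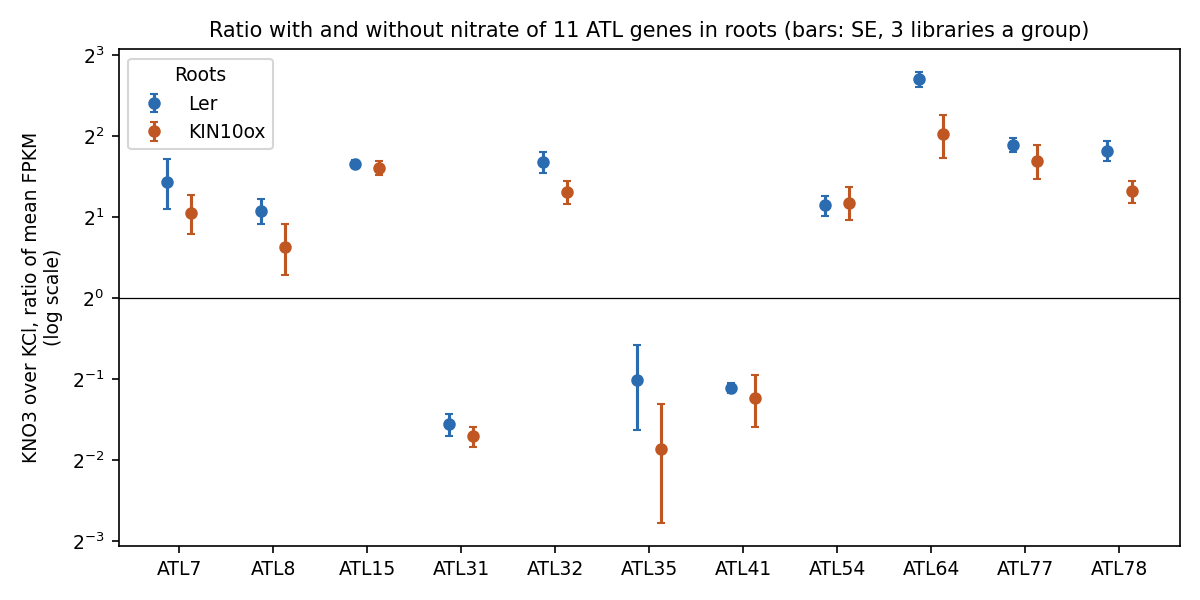
Ratio of mean FPKM with KNO3 to mean FPKM with KCl (vertical axis, log scale) for the 11 ATL genes with root values, in Ler (blue) and KIN10ox (orange), with SE bars from 3 libraries a group. ATL64 has the highest points (6.52 and 4.06), ATL31, ATL35 and ATL41 lie below 1 in both genotypes, and the points of ATL15 (3.14 and 3.05) nearly coincide.

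Between the genotypes, 1 of the 11 ATL genes was called with KCl, ATL8, against 13.8% of all genes tested (7.72% higher, 6.07% lower). With KNO3, 2 of the 11 were called, ATL8 higher and ATL64 lower, against 11.6% of all genes (2.67% higher, 8.95% lower). The median difference of the 11 was 0.12 with KCl and -0.11 with KNO3, beside 0.09 and -0.19 over all genes. ATL64 was at 44.2, 37.7 and 37.7 FPKM in Ler with KNO3 and at 25.2, 27.5 and 19.8 in KIN10ox, and these groups did not overlap, as for 28.2% of all genes in the lower direction and 8.02% in the higher. Its difference was -0.73 ± 0.18 (adjusted p = 0.0211, edgeR), and the call was lost in 8 of 19 alternatives: under TMM scaling (-0.49, adjusted p = 0.149), DESeq2's size factors and DESeq2, without library 1 or 3 of KIN10ox with KNO3, and without any 1 of the Ler libraries with KNO3 (-0.61 to -0.77, adjusted p up to 0.1001). With KCl, ATL64 differed by -0.04 ± 0.20 (adjusted p = 0.926).

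ATL78, not called, differed by -0.45 ± 0.14 with KNO3 (adjusted p = 0.0582, edgeR). ATL54, described in secondary wall formation, differed by -0.44 ± 0.18 with KCl (adjusted p = 0.122), which became a call under TMM (-0.55, adjusted p = 0.029), and ATL77 by 0.61 ± 0.23 with KCl (adjusted p = 0.11). For the difference between the nitrate responses, no gene was called among the 972 (0%), none of the 11 ATL genes included; 30 genes were called by DESeq2, and 187 had an unadjusted p under 0.05. The estimates nearest to a call among ATL genes were ATL64 at -0.69 ± 0.27 (adjusted p = 0.203) and ATL78 at -0.51 ± 0.21 (adjusted p = 0.207), where the median over all genes was -0.26.

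**Figure D3:**
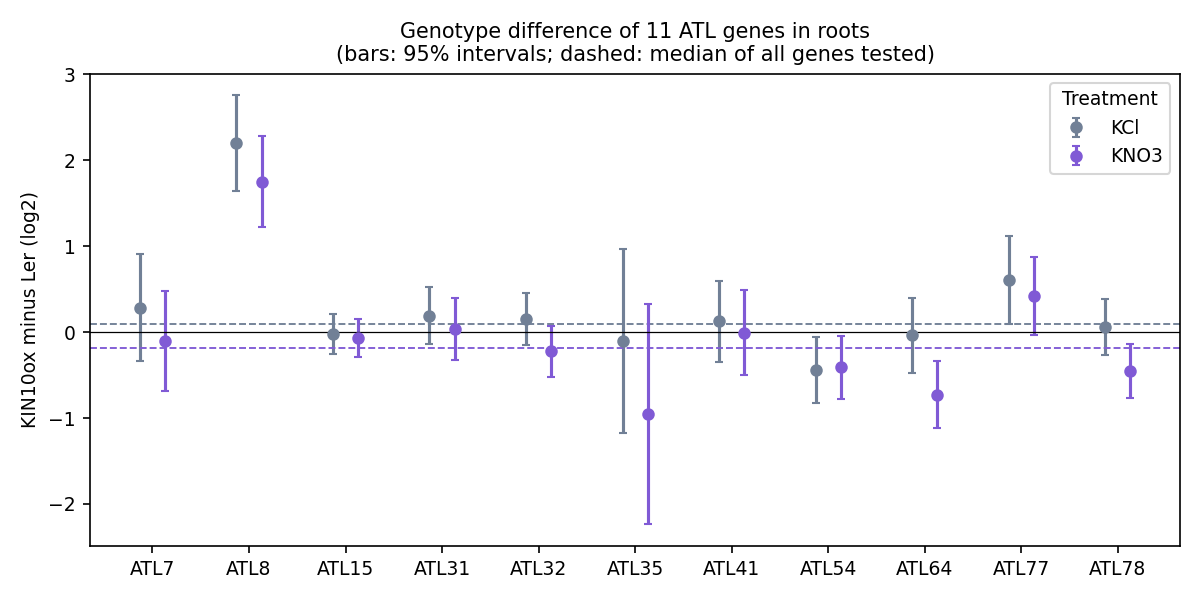
Difference between KIN10ox and Ler roots on the log2 scale (vertical axis) for the 11 ATL genes, with KCl (grey) and KNO3 (purple), bars giving 95% intervals and dashed lines the median of all 972 genes tested (0.09 and -0.19). ATL8 (2.20 and 1.75) is far above the other genes, and ATL64 with KNO3 (-0.73) has an interval below 0.

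Other genes of the pathway gave the frame for ATL8. Of 14 genes known to be induced by starvation through SnRK1, 5 had root values and 4 were tested. None was called with KCl, and 3 were higher in KIN10ox with KNO3, beside 2.67% of all genes: TPS9, of the trehalose phosphate synthase family, by 0.52 ± 0.13 (adjusted p = 0.0211, edgeR), DRM2 by 0.60 ± 0.17 (adjusted p = 0.0418) and DRM1, a dormancy-associated gene, by 0.45 ± 0.13 (adjusted p = 0.0409). The fourth, BCAT2, for a branched-chain aminotransferase, had the opposite sign and was not called, at -1.30 ± 0.60 with KNO3 (adjusted p = 0.174, edgeR) and -0.42 ± 0.50 with KCl (adjusted p = 0.635). The 3 called genes kept their direction in 19 alternatives; TPS9 was called in 14 of them, DRM2 in 9 and DRM1 in 7. TPS9 lost its call without library 1 or 2 of KIN10ox with KNO3 and without any 1 of the Ler libraries with KNO3 (adjusted p up to 0.0858). With 1 of the 12 libraries left out, DRM1 was called in 2 cases (library 3 of either KIN10ox group) and DRM2 in 3 (library 1 or 3 of KIN10ox with KCl, or library 2 of Ler with KCl). Of 18 genes for carbon and nitrogen response RING proteins and partners of ATL31, only ATL31 and CIPK14, a kinase gene, had root values, and neither was called in any root comparison.

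In protoplasts, ATL5 went from nearly no reads to a clear signal with NLP7, and back to nearly none when KIN10 was added. It was at 0.1, 0 and 0.05 FPKM with GFP (2, 0 and 1 counts), at 18.5, 12.4 and 12.3 with NLP7 (388, 238 and 259 counts) and at 0.18, 0.09 and 0.28 with NLP7 and KIN10 (4, 2 and 5 counts). The libraries with KIN10 overlapped those with GFP, and all 3 libraries with NLP7 alone lay above both. With 3 counts in the GFP group, the ratio of NLP7 to GFP was 274.9 with an exact 95% counting interval of 93.8 to 1335, against a log2 fold change of 8.05 in the authors' deposited table. The ratio of NLP7 with KIN10 to GFP was 3.33 with an interval of 0.88 to 18.6, which includes 1; both intervals cover counting error only. As ratios of mean FPKM these were 288.2 and 3.67. Without GFP library 1 they were 576.4 and 7.33, and without GFP library 2, in which ATL5 was at 0, they were 192.1 and 2.44.

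ATL4 kept more. It was at 0.16, 0.27 and 0.04 FPKM with GFP, at 13.5, 9.65 and 9.56 with NLP7 and at 1.62, 0.84 and 1.79 with NLP7 and KIN10. The 3 groups did not overlap. The ratio to GFP was 69.1 by counts (exact 95% interval 38.4 to 139) with NLP7 and 8.75 (4.7 to 18.1) with NLP7 and KIN10. As ratios of mean FPKM these were 69.6 and 9.04, and without GFP library 2 they were 109.1 and 14.2.

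ATL15, the most abundant ATL gene of the protoplasts with NLP7, was at 2.22, 1.65 and 2 FPKM with GFP, at 74.2, 64.9 and 71.8 with NLP7 and at 14, 13.8 and 26.8 with NLP7 and KIN10. The groups again did not overlap, and the ratio of means to GFP was 35.9 ± 3.37 with NLP7 and 9.29 ± 2.34 once KIN10 was added (SE). The authors' deposited tables give log2 fold changes of 5.11 and 3.21. These ratios to GFP chose the genes and are given without a test.

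**Figure D4:**
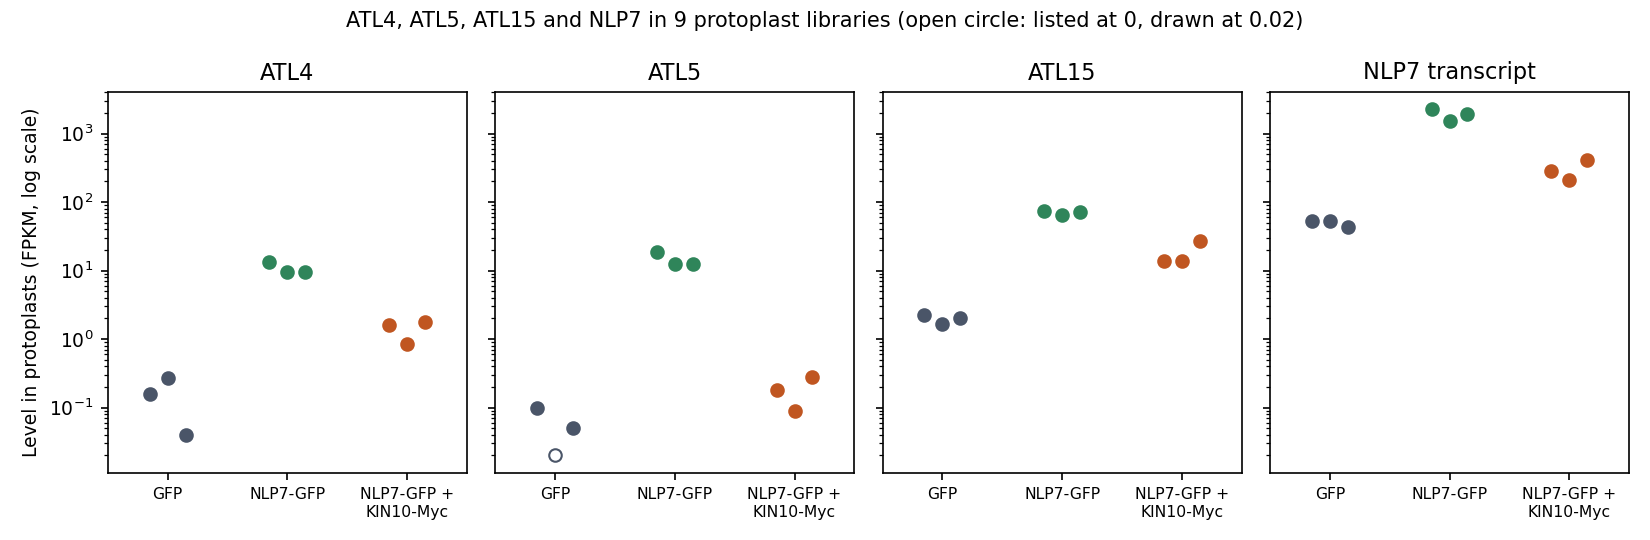
Levels of ATL4, ATL5, ATL15 and the NLP7 transcript in FPKM (vertical axis, log scale) in the 9 protoplast libraries, 1 point per library; the open circle is a library in which ATL5 was listed at 0. ATL5 with KIN10 added (0.09 to 0.28) overlaps the GFP libraries (0 to 0.1), whereas ATL4 (0.84 to 1.79) and ATL15 (13.8 to 26.8) remain above theirs.

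Adding KIN10 to NLP7 was followed by lower levels of all 3 genes. The difference from NLP7 alone was -6.31 ± 0.36 for ATL5 (95% interval -7.07 to -5.55, adjusted p = 2.51e-09), -2.96 ± 0.29 for ATL4 (-3.57 to -2.35, adjusted p = 2.22e-07) and -1.96 ± 0.23 for ATL15 (-2.44 to -1.48, adjusted p = 1.20e-06) on the log2 scale, by edgeR's quasi-likelihood test over 1722 genes. In these terms ATL5 retained 1.27% ± 0.422 of its mean FPKM with NLP7, ATL4 13% ± 3.1 and ATL15 25.9% ± 6.21 (SE). The interval of ATL5 does not overlap those of ATL4 and ATL15; the difference between the genes was not tested. Of the 1722 genes tested 19 had a larger fall than ATL5. All 3 genes were listed for being higher in these same NLP7 libraries. Outside the NLP7 group ATL5 had at most 5 counts a library. The sizes, p-values and rank are therefore not independent of how the genes were chosen, and they describe these libraries only. All 3 stayed lower and called in 15 alternatives, the smallest falls being -4.83, -1.48 and -0.51.

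Among all genes tested 90.2% were called, 86.4% lower and 3.83% higher, and the median difference was -1.47 with the recovered library sizes and 0.01 with TMM scaling. Of the genes with values, 89.4% were listed for being higher in the same NLP7 libraries that form the baseline here. Neither the direction nor the size of these differences is therefore independent of the listing. Relative to that median, ATL5 stood at -4.84, ATL4 at -1.49 and ATL15 at -0.49.

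The NLP7 transcript itself, plasmid reads included, was at 43.2 to 53.7 FPKM with GFP, at 2261, 1536 and 1950 with NLP7 and at 280.2, 211.7 and 417.4 with NLP7 and KIN10, a difference of -2.66 ± 0.21 (adjusted p = 3.67e-08, edgeR) on adding KIN10. Less NLP7 transcript and KIN10 activity cannot be told apart in these samples. The KIN10 transcript was at 26.2 to 30.1 FPKM with NLP7 and at 287.0 to 546.5 in the libraries labelled with KIN10. Within the group with KIN10, library 3 held the most NLP7 and also the most KIN10 transcript (546.5 FPKM, against 406.6 and 287.0 in libraries 1 and 2). The same library held the highest levels of 6 of the 7 tested ATL genes, ATL4, ATL5 and ATL15 among them, and of 63.5% of all genes tested. Within the NLP7 group, library 1 held the most NLP7 transcript and the highest level of all 7, and of 65.9% of all genes. Of 10 leaf markers 2 had protoplast values (CAB1 and RBCS2B), summing to 415.1 to 468 FPKM with GFP, 1119 to 1264 with NLP7 and 653.6 to 1106 with KIN10 added. Of 10 root markers 3 had values (SCR, PHO1 and GL2), summing to 2.68 to 2.97, 21.6 to 29.6 and 4.72 to 6.9 FPKM, with GL2 at 0 in the first and last group. The part of either in the ATL results was not tested.

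Across the family, 7 of the 8 ATL genes with protoplast values were listed for NLP7, all higher, against 96.1% of the 2065 protoplast genes with values (89.4% higher, 6.73% lower), and 93% of all genes listed there were higher. With KIN10 added 5 were listed against GFP, against 22% of the genes (19% higher, 3% lower): ATL4, ATL15, ATL32 and ATL54 as higher, and ATL20 as lower. ATL20 had 9 counts over the GFP libraries, 5 over the NLP7 libraries and 0 once KIN10 was added, and did not pass the filter on low counts. All 7 other genes were called lower on adding KIN10, beside the 86.4% of all genes, and their libraries did not overlap, as for 86% of all genes lower and 4.82% higher; their median log2 difference was -2.62.

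ATL54 went from 0.04, 0 and 0.04 FPKM with GFP to 41.5, 32.2 and 36.8 with NLP7 and 5.02, 4.44 and 8.7 with KIN10 added. The GFP group held 2 counts, giving a ratio of 1307 by counts with an exact 95% interval of 361.6 to 10800. With KIN10 added, ATL4, ATL15, ATL32 and ATL54 stayed above the GFP range, and ATL5, ATL64 and ATL72 overlapped it. ATL72 lay at 0.53 to 1.62 against 0.44 to 1.1 FPKM with GFP. The share of all genes without such overlap was not computed, so nothing is read from these counts. A link to the promoter spacing was not tested. ATL64 was at 5.35, 4.96 and 5.4 FPKM with GFP, at 37.4, 31.6 and 26.9 with NLP7, and at 5.27, 5.89 and 4.92 with KIN10 added, where it overlapped the GFP libraries. ATL32 had means of 0.88 ± 0.0625, 43.0 ± 6.21 and 5.22 ± 3.17 FPKM (SD, n = 3). The log2 differences on adding KIN10 were -3.06 ± 0.30 for ATL32, -2.62 ± 0.23 for ATL54, -2.58 ± 0.18 for ATL64 and -1.87 ± 0.37 for ATL72 (adjusted p at most 2.32e-04, edgeR); that of ATL72, at means of 0.673, 3.5 and 0.99 FPKM, was not called under TMM (-0.39, adjusted p = 0.311), DESeq2's size factors (-0.60) or DESeq2 (-0.59).

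**Figure D5:**
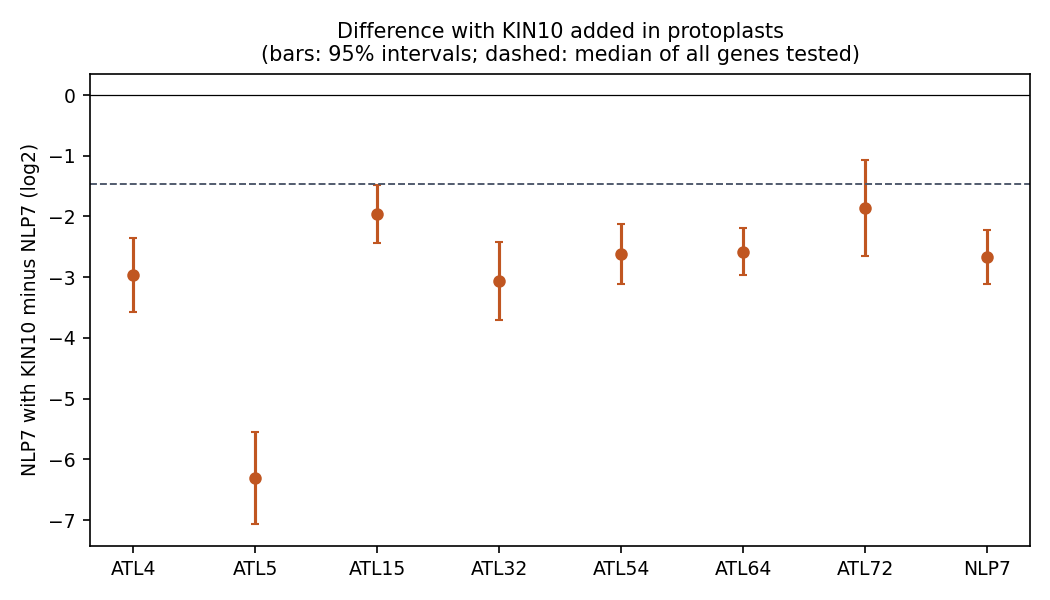
Difference on adding KIN10 to NLP7 in protoplasts on the log2 scale (vertical axis) for the 7 ATL genes tested and for the NLP7 transcript, with 95% intervals; the dashed line is the median of all 1722 genes tested (-1.47). ATL5 (-6.31) lies below the other 6 ATL genes, which range from -3.06 to -1.87 beside -2.66 for the NLP7 transcript.

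Of the starvation genes, ASN1 (asparagine synthetase) and EXPA10 (an expansin) had protoplast values and were lower with KIN10 added, at -1.07 ± 0.13 (adjusted p = 1.56e-06) and -3.04 ± 0.16 (adjusted p = 1.35e-09, edgeR). The sign of ASN1 turned with the scaling, to 0.42 under TMM and 0.21 under DESeq2's size factors, while EXPA10 stayed lower in 15 alternatives. Both scalings were computed over the selected genes only. They moved the median over all genes tested from -1.47 to 0.01 and -0.20. No gene of the carbon and nitrogen list had protoplast values.

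ATL15, ATL32, ATL54 and ATL64 had values in both tissues, and each was listed as higher with nitrate in both root genotypes and with NLP7 in protoplasts. Of all genes with values in a tissue, 47.6% were listed as higher in Ler roots, 39% in KIN10ox roots and 89.4% with NLP7. The share over genes with values in both tissues was not computed. Since the listing chose the genes, nothing is read from this count. Their ratios with nitrate in Ler were 3.14, 3.21, 2.21 and 6.52, and their ratios with NLP7 in protoplasts were 35.9, 48.9, 1307 by counts and 6.11. ATL64 thus had the largest ratio of the 4 in roots and the smallest in protoplasts. In the control protoplasts ATL64 was the most abundant of the 4, at a mean of 5.24 FPKM.

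The genes whose pattern was most like each ATL gene were taken by Pearson's r of log2(FPKM + 0.1) among genes with a mean of at least 1 FPKM; the libraries share groups and depth, so the values are descriptive. Over the 12 root libraries and 819 genes, ATL8 was nearest to AT4G22470 (r = 0.956), GSTU11, a glutathione transferase gene (r = 0.93), and AT3G26610 (r = 0.925), where the median over all genes was 0.166. The group means of all 3 stood in the same order as those of ATL8, at 1.1, 2.0, 5.37 and 10.1 FPKM for AT4G22470. ATL15 was nearest to NAS2, for nicotianamine synthase (r = 0.996), AT4G36010 (r = 0.996) and G6PD3, for a plastid enzyme of reductant supply (r = 0.996), against a median of 0.803. ATL8 and ATL15 correlated at 0.373.

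Over the 9 protoplast libraries and 1211 genes, ATL5 was nearest to CAX1, a vacuolar calcium exchanger gene (r = 0.999), CYP708A2, a gene of thalianol metabolism (r = 0.998), and AT3G01060 (r = 0.997), against a median of 0.941. CAX1 had means of 6.65, 42.5 and 8.45 FPKM with GFP, NLP7 and NLP7 with KIN10, so like ATL5 it was close to its GFP level with KIN10 added. ATL4 was nearest to GATA3 (r = 0.995), AT4G28080 (r = 0.994) and AT1G05675 (r = 0.993), against a median of 0.926. ATL15 was nearest to PGM (AT1G78050; r = 0.999), PPME1 (r = 0.999) and AT1G77400 (r = 0.998), against a median of 0.876, and to ATL54 among ATL genes (r = 0.995).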

How the data were processed

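Per the submitters' processing notes, HISAT and Bowtie2 served for mapping, on build TAIR10; the counter, its strand setting and tool versions are not given in the sources. Per the file headers, the authors deposited expected counts, FPKM, TPM, log2 fold changes and p-values with adjusted p-values (q-values) from DESeq2, for selected genes only (770, 862, 1985 and 455 a table); the design text names NOISeq with 2-fold and a probability of 0.8. One label field gives the protoplast samples as Ler seedlings, another as Col-0. Another 18 sample columns were not used.

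Mapped fragments, recovered from the authors' expected counts and FPKM, were 19704160 to 20236704 a root library and 16189404 to 20436272 a protoplast library. Expected counts were rounded, filtered (filterByExpr) and tested with edgeR 4.0.16 (quasi-likelihood, recovered library sizes, no further scaling, all groups of a tissue in the fit; Benjamini-Hochberg, threshold 0.05). A log2 SE is the log2 difference over the root of F. DESeq2 1.42.0, TMM, other filters, fits and left-out libraries were alternatives. Simulated data held 100 genes changed 2-fold and 100 changed 4-fold, up or down, and no other change. In these, 63% of 2-fold and 89% of 4-fold changes were recovered for KIN10ox against Ler with KCl over 972 genes. For KIN10 added, 72% and 90% were recovered over 1722 genes. Of the calls, 3.8% and 5.81% were false. In the measured protoplast data 90.2% of genes were called, so the simulation does not describe recovery there. R 4.3.3, Python 3.11.15, pandas 2.3.3, numpy 2.4.6, SciPy 1.17.1 and matplotlib 3.10.9 were used. Counting intervals and ratios cover counting error only.

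The members and lists were chosen with earlier results of these data known. All ATL genes were named, list genes that passed a test (at most 4 a list), and the 3 genes most like each ATL gene of the rule; 1 list is not reported here.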

Additional observations from a re-analysis of the deposited data

How the results depend on the processing

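Of the values that answer a comparison, 270 kept their direction and side of the threshold or moved little, 15 moved and 10 reversed. Every reversal was of ATL15 in roots, whose differences lie near 0: with KNO3, 0.15 under TMM, 0.16 under DESeq2's size factors and 0.15 under DESeq2; for the difference of responses, 0.28, 0.28 and 0.29, and 0.0198 without libraries 1 and 3 of KIN10ox with KCl. Leaving out 1 library gave ATL15 -0.0422 to 0.00603 with KCl (0.0015 without library 1 of Ler with KCl), -0.14 to -0.007 with KNO3 and -0.12 to 0.018 for the difference of responses. ASN1 reversed to 0.42, 0.21 and 0.21 under these scalings. Leaving out 1 library gave 74 to 179 calls with KCl (74 without library 2 of Ler and 88 without library 1 of KIN10ox), 52 to 115 with KNO3 (52, 60 and 61 without Ler libraries 1, 2 and 3, and 74 and 69 without KIN10ox libraries 1 and 2) and 0 to 19 for the difference of responses (19 without library 2 of KIN10ox with KCl, 15 without library 1 of Ler with KCl, 2 without library 3 of KIN10ox with KNO3). Without libraries 1 and 3 of KIN10ox with KCl, a choice made after seeing the data, there were 44 calls with KCl and 1 for the difference of responses, for which DESeq2 gave 30. For KIN10 added, DESeq2's size factors gave 965 calls and DESeq2 937 in place of 1554. The cause was not tested. The labels tie no replicate number to a shared source, and not every same-numbered pair deviated together (correlations -0.265 to 0.304 in roots, median 0.0525 beside -0.0196 for different numbers, and -0.0297 to 0.163 in protoplasts), so the numbers were not taken as pairs. Of the root libraries 8 of 12 correlated best with their own number, where 4 would if numbers were unrelated, a hint of pairing from the data, and of the protoplast libraries 2 of 9, where 3 would. With a replicate block there were 137, 116, 0 and 1550 calls, ATL78 with KNO3 became a call (-0.45, adjusted p = 0.0244, edgeR), and DRM2 was lost (adjusted p = 0.0553). Among single genes, 419 values stayed, 53 lost and 4 gained a call. Depth limits ATL5 and ATL54 in GFP libraries, at 3 and 2 counts.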
